A study of Homo sapiens with 26 samples.

Results

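The hemidesmosome and laminin-332 genes examined here are 8 genes that encode the stable anchor between a basal squamous cell and the basement membrane: COL17A1, ITGA6, ITGB4, CD151, DST, PLEC, LAMA3 and LAMB3. They were taken by symbol out of 26485 gene symbols listed in each of 5 mRNA-seq tables. The choice was made with earlier results of these data known, so their counts beside shares of all genes are descriptions only. All 8 were found in every table, and all 8 passed the filter on low values, a mean normalised read count of at least 10, in every table. The tables hold 26 libraries of KYSE180, TE6 and KYSE150, 3 established human lines of esophageal squamous cell carcinoma (ESCC). RNA was taken after small interfering RNA (siRNA) against the germ-cell bromodomain gene BRDT, after siRNA against TP63, the gene of the squamous transcription factor p63, or after overexpression of BRDT.

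KYSE180 cells with control siRNA (siCont, 3 libraries) were compared with KYSE180 cells with siRNA against BRDT (siBRDT, 3 libraries). In a separate experiment KYSE180 siCont (2 libraries) was compared with KYSE180 siTP63 (2 libraries). TE6 siCont, TE6 siBRDT and TE6 siTP63 (2 libraries each) formed 1 table, so both TE6 knockdowns share their controls. KYSE150 siCont and KYSE150 siTP63 had 2 libraries each, and KYSE150 control and KYSE150 BRDT-OE, the overexpression, had 3 each. All knockdown cells were collected 48 h after transfection by lipid reagent. BRDT-OE cells received a BRDT plasmid by electroporation and their controls a control vector. Which of the siRNAs against a gene went into the sequenced cells is not given. Nothing says that replicates came from separate cultures, so p-values measure only the spread between these samples, which may be technical. In bulk RNA, fewer cells that express a gene and less RNA per cell cannot be told apart.

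Hemidesmosomes rivet the basal keratins of stratified epithelia to the underlying matrix. In them, α6β4 integrin and the transmembrane collagen XVII bind laminin-332 outside the cell, and plectin and BP230 couple them to keratin filaments inside it. Loss of a component of this chain is a textbook cause of blistering skin disease, and the same proteins take part in carcinoma cell adhesion and migration. Of laminin-332 the α3 and β3 chain genes, LAMA3 and LAMB3, are covered here.

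The intended genes moved in the treated cells. In KYSE180, BRDT was at 1065 ± 62.5 with siCont and at 159 ± 34.9 with siBRDT (SD, n = 3), which is -2.75 on the log2 scale (limma adjusted p = 2.6e-10). In TE6 it was at 241 ± 0.828 and 50.8 ± 5.97 (SD, n = 2), or -2.23 (limma adjusted p = 1.7e-06). TP63 changed by -1.70 with siTP63 in KYSE180 (limma adjusted p = 4.9e-10). In TE6 its change was -4.45 (limma adjusted p = 1.3e-10), a deeper depletion. In KYSE150, TP63 went from 695 and 729 to 170 and 114 (-2.34), with a limma adjusted p of 0.082. TP63 was also lower with siBRDT, at -0.58 in KYSE180 (limma adjusted p = 8.8e-06) against -1.148 for TE6 (limma adjusted p = 2.0e-05). BRDT was at 8.13, 16.03 and 6.58 in KYSE150 control libraries and at 15872, 15927 and 17542 in BRDT-OE. Libraries held 7582089 to 19372441 reads, in which 3 reads, the most that a count of 0 allows by counting error alone, were worth a value of 1.99 to 4.72. All 10 squamous markers examined, KRT5 and KRT14 among them, were above the filter in every group. Of 8 simple glandular markers 2 to 5 were above it, of 8 fibroblast markers 2 to 5 (sums of 83.2 to 1284) and of 4 leukocyte markers 1 or 2 (sums of 69.5 to 1644). The leukocyte sum was lower after either knockdown in KYSE180 and TE6. In these groups 1 of its 4 genes was above the filter, or 2 in KYSE180 siTP63, so the sum rests mostly on those. With siBRDT it was at 223 to 258 against 533 to 591 in KYSE180 and at 234 to 242 against 403 to 414 in TE6. With siTP63 it was at 160 to 173 against 502 to 525 in KYSE180 and at 69.5 to 104 in TE6. It was also lower with BRDT-OE (1280 to 1330 against 1452 to 1644). The T-cell marker CD3E and PTPRC were at 0 reads in TE6 siCont and TE6 siTP63. The glandular sum was higher with siBRDT in TE6 (41184 to 41270.1 against 27921 to 31988) and lower with siTP63 in KYSE180 (49283 to 63262 against 80245 to 104797) and in KYSE150 (44005 to 76546 against 81841 to 135225). The part of these lists in the results below was not tested.

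The promoters of these genes were read from the RefSeq table of build GRCh38.p14, which gives 250 bases before and 50 bases after a start site. It holds 10 promoters of 5 of the genes (COL17A1, ITGA6, LAMA3, LAMB3 and DST). They were searched on both strands for the AP-1 element TGACTCA and for the p53-family decamer, which is only a part of the full p63 element. The decamer was in 1 of the 10 promoters, that of COL17A1, and in 6.63% of all 35116 promoters. The AP-1 element was in 3 of the 10, belonging to LAMA3, LAMB3 and DST, and in 4.95% of all. The 4 promoters with a match are shown, and whether a match goes with a response to the knockdowns was not tested. Capitals mark the match, all run 5′ to 3′ on the gene's strand, and a match in a window is a description, not a measured binding site.
COL17A1, chr10:104085831-104086130, minus strand, p53-family decamer starting 55 bases before the start site: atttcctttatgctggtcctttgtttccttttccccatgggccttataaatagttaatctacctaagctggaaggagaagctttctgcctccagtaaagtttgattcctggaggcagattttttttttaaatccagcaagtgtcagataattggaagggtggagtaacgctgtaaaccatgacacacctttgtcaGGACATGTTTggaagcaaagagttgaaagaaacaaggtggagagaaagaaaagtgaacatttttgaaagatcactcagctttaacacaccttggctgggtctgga
LAMA3, chr18:23872770-23873069, plus strand, AP-1 elements starting 125 and 69 bases before the start site: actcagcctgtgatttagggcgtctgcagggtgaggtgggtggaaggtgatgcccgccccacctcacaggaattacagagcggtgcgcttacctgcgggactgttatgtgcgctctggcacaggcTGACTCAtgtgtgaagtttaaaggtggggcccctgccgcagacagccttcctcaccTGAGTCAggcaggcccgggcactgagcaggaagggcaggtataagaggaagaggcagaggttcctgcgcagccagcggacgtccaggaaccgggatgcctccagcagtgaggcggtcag
LAMB3, chr1:209651325-209651624, minus strand, AP-1 element starting 67 bases before the start site: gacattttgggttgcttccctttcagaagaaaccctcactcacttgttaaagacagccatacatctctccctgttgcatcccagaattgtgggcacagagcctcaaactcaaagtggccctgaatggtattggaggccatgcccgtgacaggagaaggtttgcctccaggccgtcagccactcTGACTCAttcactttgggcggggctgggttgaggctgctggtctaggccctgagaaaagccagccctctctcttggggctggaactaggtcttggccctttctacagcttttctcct
DST, chr6:56954781-56955080, minus strand, AP-1 element from base 26, the start site being base 1: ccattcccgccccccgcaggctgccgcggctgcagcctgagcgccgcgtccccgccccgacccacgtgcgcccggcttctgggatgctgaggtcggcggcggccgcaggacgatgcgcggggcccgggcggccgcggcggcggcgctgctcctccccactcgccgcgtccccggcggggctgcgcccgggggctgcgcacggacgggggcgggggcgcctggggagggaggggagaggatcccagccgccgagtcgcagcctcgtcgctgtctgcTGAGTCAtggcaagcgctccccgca

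The genes lie apart in the genome (hg38, GENCODE release 44). COL17A1 spans chr10:104031286-104085880, ITGA6 chr2:172427354-172506459, ITGB4 chr17:75721328-75757818 and CD151 chr11:832887-839831. DST spans chr6:56457987-56954830, PLEC chr8:143915153-143976734, LAMA3 chr18:23689453-23956222 and LAMB3 chr1:209614870-209652425. The LAMA3 and LAMB3 promoters shown lie inside their genes. Their longest transcripts differ in length from 1.86 kb (CD151) to 24.7 kb (DST), and in GC content from 41.6% (DST) and 42.5% (ITGA6) to 67.0% (PLEC). LAMB3 and DST have 3 promoters each in the table, and the AP-1 element was in 1 of each. The LAMB3 promoters at the 5′ end of the gene, chr1:209652280-209652579 and chr1:209652376-209652675, held no match. The DST promoter shown lies at the 5′ end of the gene. Those inside the gene, at chr6:56642840-56643139 and chr6:56851856-56852155, held no match. Which DST promoter makes the transcript of BP230 is not given there, so the match is not assigned to BP230. Gene totals do not separate transcripts from different starts, so the values of LAMA3, LAMB3, DST, PLEC and ITGA6 are sums over isoforms. Exons of CD151 overlap those of POLR2L on the opposite strand, and the library kit does not mark strand, so reads of the pair cannot be told apart. Exons of ITGA6 likewise overlap antisense transcripts.

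In order to set a baseline, control libraries were compared between genes as RPM, reads scaled to the total of the library, per kb of longest transcript (RPM per kb). LAMB3 was first in both KYSE180 experiments, at 179 ± 1.65 (SD, n = 3) and 151 ± 22.2 (SD, n = 2). CD151, a tetraspanin that associates with laminin-binding integrins, was first in TE6 at 99.7 ± 2.25 (SD, n = 2) and in both KYSE150 experiments, at 222 ± 27.9 (SD, n = 2) and 144 ± 16.8 (SD, n = 3). LAMA3 was last in all 5 control groups, at 2.08 to 8.99 RPM per kb. The longest transcript may not be the isoform these cells use, which gene totals do not show. Levels divided by the length of all exons of the gene, a choice made after seeing the data, moved CD151 to place 3 in TE6 and to place 2 in KYSE150 control, with LAMB3 first in both, and moved LAMA3 to place 7 above DST in both KYSE150 groups. Transcripts of the β3 chain were thus above those of the α3 chain in every control group by either length. In KYSE180 (BRDT experiment) ITGA6 (107 ± 4.08) and COL17A1 (101 ± 4.83) followed LAMB3 and did not differ beyond their spread, and ITGB4 (80.9 ± 5.90) and CD151 (74.0 ± 2.07) came next (SD, n = 3). The same 2 genes of TE6 were low, COL17A1 at 11.2 ± 0.9748 and ITGA6 at 15.6 ± 0.0818 (SD, n = 2), beside ITGB4 at 59.9 ± 2.06 (SD, n = 2).

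Control cells of the same line differed between experiments. ITGA6 was at 622 ± 23.7 RPM (SD, n = 3) in KYSE180 siCont of the BRDT experiment and at 86.0 ± 3.68 RPM (SD, n = 2) in that of the TP63 experiment. DST was at 675 ± 72.6 and 127 ± 2.18 RPM, and CD151 went the other way, at 137 ± 3.85 and 240 ± 11 RPM. TP63 itself was at 892 ± 49.4 RPM (SD, n = 3) in the BRDT experiment and at 166 ± 24.4 RPM (SD, n = 2) in the TP63 experiment. The experiments were normalised apart and all treated cells are compared below only with the controls of their own table. The cause of the gap was not tested.

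**Figure D1:**
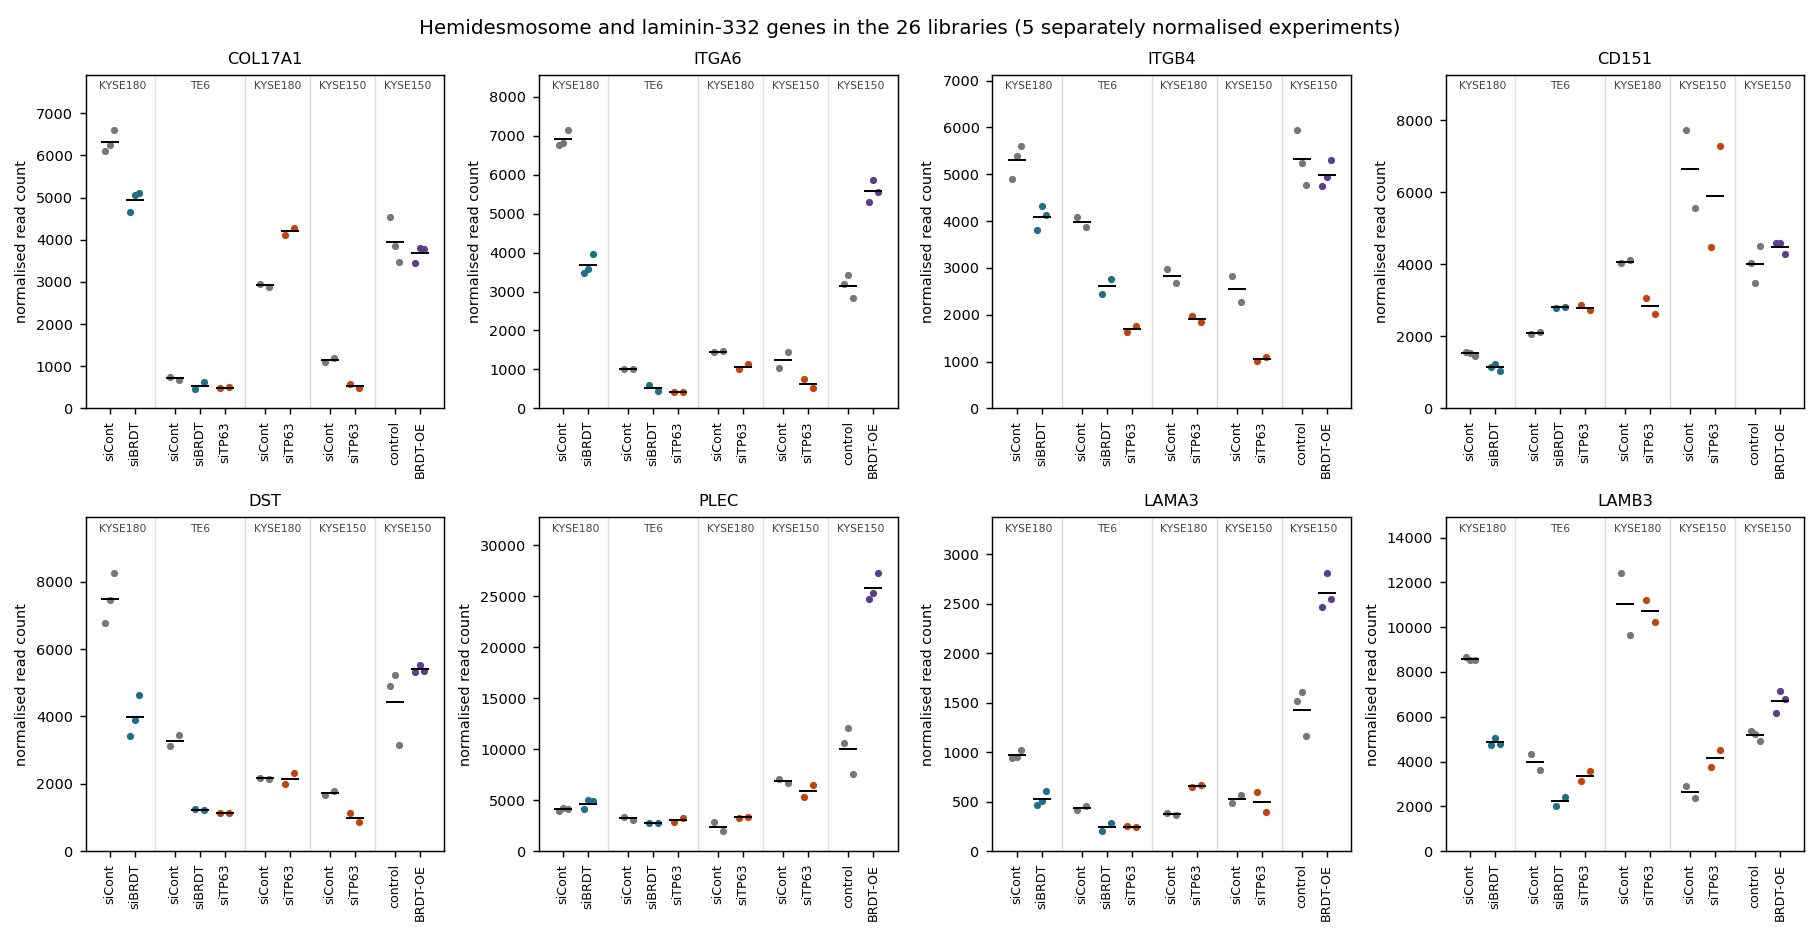
Normalised read count (y axis, linear, from 0) of each of the 8 genes in 26 libraries (points) of 11 groups (x axis), with the group mean as a bar; vertical lines part the 5 experiments, which were normalised separately. Controls are grey, siBRDT blue-green, siTP63 orange and BRDT-OE purple. ITGA6, DST, LAMA3 and LAMB3 sit lower with siBRDT than with siCont in KYSE180 and TE6, and PLEC, LAMA3 and ITGA6 sit above control with BRDT-OE.

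BRDT depletion was first examined in KYSE180, where 4 of the 8 genes fell and 0 rose. Calls needed an adjusted p under 0.05 (limma with Benjamini-Hochberg adjustment over all genes tested) together with a change of 0.5 or more on the log2 scale, in either direction. Of all 13589 genes tested, 15.8% fell and 14.5% rose by this rule. With no fold limit, 7 of the 8 were lower, beside 29.8% of all genes. The median log2 fold change of the 8 genes was -0.62, and that of all genes was -0.0052.

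ITGA6, the α subunit of the laminin receptor, was at 6754, 6821 and 7142 with siCont and at 3486, 3575 and 3973 with siBRDT. The groups did not overlap, and the log2 fold change was -0.91 ± 0.0642 (SE, adjusted p = 2.3e-08). Its partner ITGB4, whose long cytoplasmic tail binds plectin, was at 4905, 5379.9 and 5604 and then at 3816, 4316 and 4136. These groups did not overlap either, but the log2 fold change of -0.37 (adjusted p = 2.7e-04) was under the fold limit. COL17A1, a collagen that crosses the membrane, behaved likewise at 6109, 6255 and 6600.3 against 4659, 5051 and 5116 (-0.36, adjusted p = 1.7e-04). CD151 was at 1568, 1545 and 1465 against 1144, 1240.0 and 1034 (-0.42, adjusted p = 1.5e-04). Every siBRDT library was below every siCont library for each of these 4 membrane genes. How many of all genes had groups without overlap was not counted, here or in the other comparisons. CD151 was called (-0.55) when the dependence of each library on transcript length and GC content, here the length and GC trend, was removed.

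The plaque genes parted. DST, which encodes BP230 in epithelia, fell from 6763, 7457 and 8268.5 to 3413, 3892 and 4636 (-0.92 ± 0.0968, adjusted p = 1.4e-06). PLEC, which encodes the keratin linker plectin, was at 3967, 4229 and 4079 with siCont and at 4089.6, 4998 and 4879 with siBRDT. The groups of PLEC overlapped, and its log2 fold change was 0.18 (adjusted p = 0.048). Both laminin chains fell. LAMA3 went from 936, 946 and 1026 to 464, 502 and 609 (-0.89 ± 0.0918, adjusted p = 1.2e-06). LAMB3 went from 8651, 8532 and 8523 to 4743, 5055 and 4777 (-0.82 ± 0.0575, adjusted p = 2.2e-08). The siBRDT values of LAMB3 thus stood at 56.7% of control and those of LAMA3 at 53.9%. The sum of the 10 squamous markers moved with them, from 110375 to 121543 with siCont down to 67541 to 71749 with siBRDT, and its part in these values was not tested.

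In TE6, the second BRDT-expressing line, 5 of the 8 genes fell with siBRDT and 0 rose by the rule. Among all 13333 genes, 18.1% fell and 15.6% rose. The median log2 fold change was -0.73 for the 8 genes and -0.039 for all. DST moved most, from 3108 and 3459 to 1259 and 1208 (-1.41 ± 0.0994, adjusted p = 1.2e-06), which left 37.6% of control. ITGA6 fell from 1022 and 1023 to 604 and 459 (-0.96 ± 0.135, adjusted p = 1.3e-04), and was still called at -0.58 with the length and GC trend removed. ITGB4 fell from 4092 and 3873 to 2443 and 2771 (-0.61 ± 0.10, adjusted p = 3.7e-04). All siBRDT values of these genes were below all siCont values.

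The laminin chains of TE6 fell by like amounts. LAMB3 was at 4332 and 3641 with siCont and at 2034 and 2412 with siBRDT (-0.84 ± 0.119, adjusted p = 1.4e-04). LAMA3 was at 417 and 456 and then at 206 and 285.5 (-0.84 ± 0.160, adjusted p = 0.0011). COL17A1 was at 756 and 664 against 456 and 627, a log2 fold change of -0.40 (adjusted p = 0.040) under the limit. Leaving out 1 library gave -0.63 to -0.18, called without siBRDT replicate 2, the higher library, and smallest without siBRDT replicate 1. PLEC was at 3366 and 3058 against 2738 and 2707 (-0.24, adjusted p = 0.067). CD151 ran against the others, at 2061 and 2115 with siCont and 2781 and 2818 with siBRDT (0.42, adjusted p = 0.0024), under the fold limit. This difference was -0.061 once the length and GC trend was removed. The interferon-response list, 10 of 10 above the filter, summed to 8612 to 9926 with siCont and to 47839 to 57794 with siBRDT in TE6. In KYSE180 siBRDT it summed to 9111 to 10507 beside 9696 to 10595 in siCont. The squamous markers of TE6 summed to 111530 to 115760 with siCont and to 78493 to 83192 with siBRDT. What part these lists had in the TE6 values was not tested.

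Whether the siBRDT effect differed between the lines was tested as a contrast of the log2 fold changes, with no fold limit. It did for 3 of 8 genes: 2 were higher and 1 lower in KYSE180, where 20.3% and 18% of all 13804 genes were higher and lower. DST fell by 0.49 less in KYSE180 (SE 0.155, adjusted p = 0.019). PLEC was 0.42 higher (SE 0.129, adjusted p = 0.017) and CD151 0.85 lower (SE 0.116, adjusted p = 4.8e-05). The DST difference was 0.18 (adjusted p = 0.31) with the length and GC trend removed, 0.42 (adjusted p = 0.054) without KYSE180 siCont replicate 1 and 0.41 (adjusted p = 0.11) without TE6 siCont replicate 2. The PLEC difference was 0.36 (adjusted p = 0.050) without KYSE180 siBRDT replicate 2 and 0.35 (adjusted p = 0.090) without TE6 siCont replicate 1. The CD151 difference passed in all 18 alternatives and was -0.50 with the length and GC trend removed. ITGB4 (0.24, adjusted p = 0.13) was at 0.15 to 0.33 with 1 library left out and passed in 1 of these 12 fits, without TE6 siBRDT replicate 2. For ITGA6 the difference was 0.046, with a 95% interval of -0.25 to 0.34. For LAMA3 the interval was -0.44 to 0.34, and for LAMB3 -0.26 to 0.30.

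**Figure D2:**
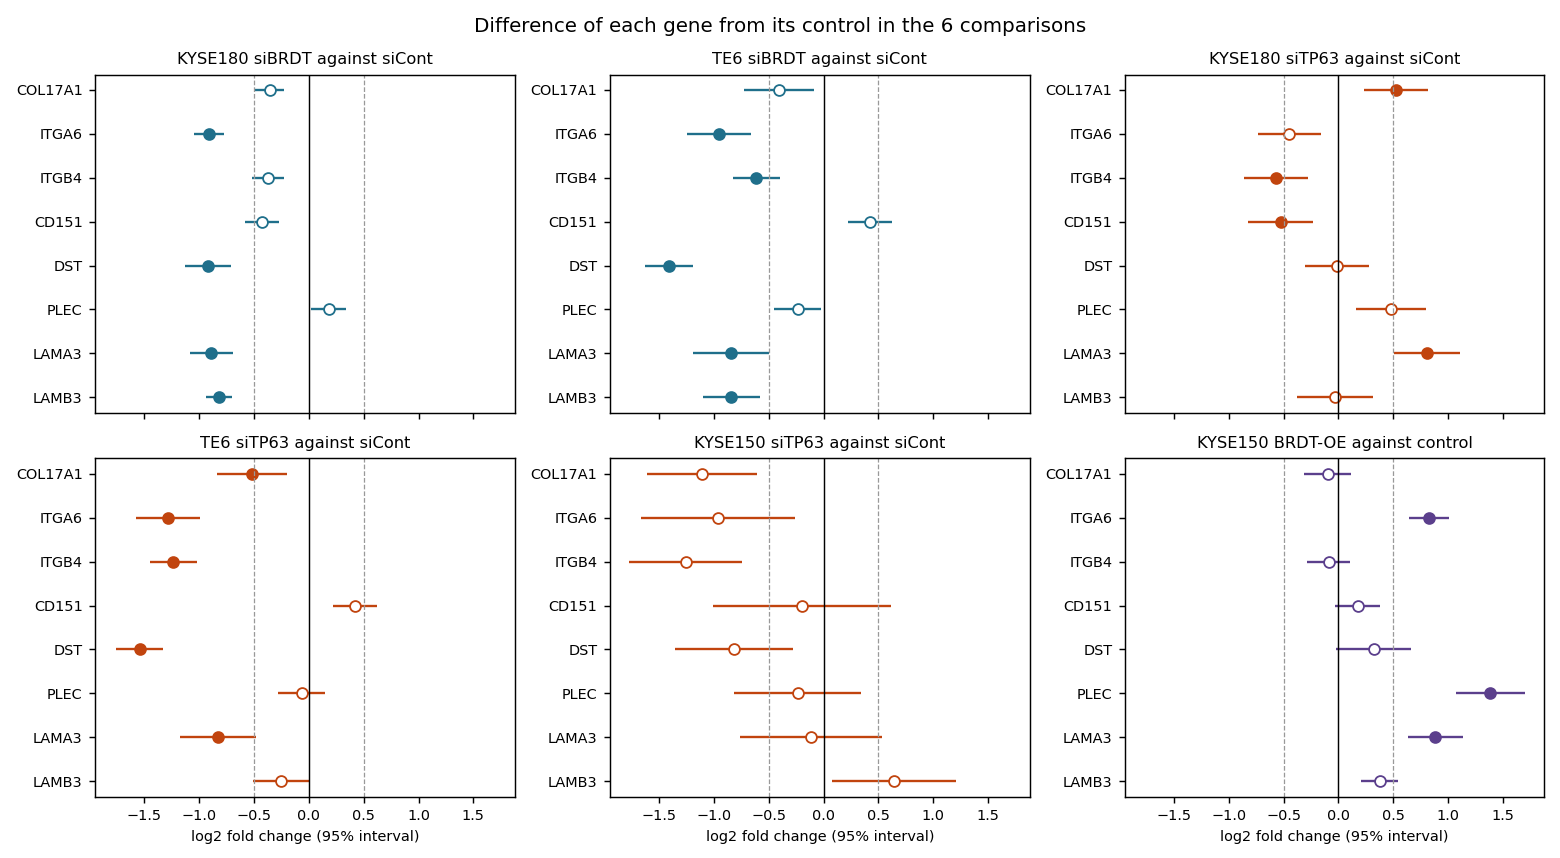
Log2 fold change (x axis, points) with its 95% interval (lines) of the 8 genes (y axis) in 6 comparisons, one panel each. Filled points are called, open points are not, and dashed lines mark -0.5 and 0.5. ITGA6, DST, LAMA3 and LAMB3 are filled and left of 0 in both siBRDT panels, while in the BRDT-OE panel ITGA6, PLEC and LAMA3 are filled and right of 0.

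p63 depletion was then examined, first in TE6, where it shares controls with siBRDT. Of the 8 genes, 5 fell and 0 rose, where 20.6% of all genes fell and 18.3% rose. The median log2 fold change was -0.67 for the 8 genes and -0.011 for all. DST went from 3108 and 3459 to 1123 and 1126 (-1.54 ± 0.0994, adjusted p = 2.0e-07), which left 34.3% of control. ITGA6 went from 1022 and 1023 to 415 and 425 (-1.28 ± 0.135, adjusted p = 9.2e-06). ITGB4 went from 4092 and 3873 to 1632 and 1752 (-1.23 ± 0.10, adjusted p = 1.2e-06). Both integrin subunits thus kept about the same ratio, ITGB4 to ITGA6 being 3.89 ± 0.154 in siCont and 4.03 ± 0.134 in siTP63 (SD, n = 2).

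The laminin chains parted in these cells. LAMA3 fell from 417 and 456 to 249.5 and 239.7, a log2 fold change of -0.83 ± 0.160 (adjusted p = 9.3e-04). LAMB3 was at 4332 and 3641 with siCont and at 3117 and 3572 with siTP63 (-0.25, adjusted p = 0.096), with no overlap of the groups but not past the threshold. COL17A1 was at 756 and 664 against 486 and 505 (-0.52 ± 0.148, adjusted p = 0.011), just past the fold limit. It was not called with upper-quartile rescaling (-0.47) or with the length and GC trend removed (-0.50). Nor was it called without siCont replicate 1 (-0.42, adjusted p = 0.12), siTP63 replicate 1 (-0.49, adjusted p = 0.094) or siTP63 replicate 2 (-0.54, adjusted p = 0.066). PLEC was at 3366 and 3058 against 2892 and 3248 (-0.066, adjusted p = 0.60), and its groups overlapped. CD151 was at 2859.6 and 2733 with siTP63 against 2061 and 2115 (0.42, adjusted p = 0.0020), a difference of 0.056 with the length and GC trend removed. The interferon-response list summed to 47783 to 56573 with siTP63 beside 8612 to 9926 with siCont. The squamous markers summed to 35510 to 35716 beside 111530 to 115760, and the leukocyte markers to 69.5 to 104 beside 403 to 414. The part of these lists in the values was not tested.

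The 2 knockdowns of TE6 were compared directly, in the same fit. ITGB4 was 0.62 lower with siTP63 than with siBRDT (SE 0.10, adjusted p = 4.1e-04). LAMB3 was 0.59 higher (SE 0.119, adjusted p = 0.0019). These were 1 lower and 1 higher of 8, where 14.3% of all genes were lower and 14.1% higher. The LAMB3 difference was 0.47 without siBRDT replicate 1 and 0.49 (adjusted p = 0.050) without siTP63 replicate 2, in both cases not called. For ITGA6 the difference of -0.33 (adjusted p = 0.072) was not called. With 1 library left out it was -0.52 to -0.13, called without siBRDT replicate 2 and smallest without siBRDT replicate 1. The other genes were not called. The 95% interval of the difference was -0.35 to 0.082 for DST and -0.34 to 0.36 for LAMA3.

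In KYSE180, p63 depletion left 2 of the 8 genes lower and 2 higher. Among all 13924 genes, 25.7% fell and 23.6% rose, so these counts are near the shares of all genes. The median log2 fold change was -0.022 for the 8 genes and 0.00064 for all. LAMA3 rose from 384 and 366 to 646 and 663 (0.80 ± 0.146, adjusted p = 4.6e-05), to 175% of control. COL17A1 rose from 2954 and 2879 to 4121 and 4289 (0.53 ± 0.142, adjusted p = 0.0025). ITGB4 fell from 2985 and 2668 to 1965 and 1838 (-0.57 ± 0.141, adjusted p = 0.0012). CD151 fell from 4027 and 4112 to 3050.1 and 2618 (-0.53 ± 0.144, adjusted p = 0.0031). No groups overlapped in these 4 genes, with 2 libraries in each group.

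The falls in this comparison depended on the scale. With libraries rescaled to equal upper quartiles, the median of all genes moved up by 0.19, ITGB4 was at -0.38 and CD151 at -0.33, both under the limit, and PLEC (0.67) was called higher. Of all calls in this comparison 52.1% were lower, against 36.8% after that rescaling. On the RPM scale every log2 value of this comparison would be 0.52 higher. On that scale ITGB4 was at 167 ± 8.06 RPM with siCont and 161 ± 1.81 RPM with siTP63 (SD, n = 2), and CD151 at 240 ± 11 and 240 ± 17.2 RPM. LAMA3 rose on every scale, being at 22.1 ± 0.0776 and 55.6 ± 3.07 RPM, and it was called in all 12 alternatives, at 0.52 with the length and GC trend removed. The COL17A1 call was lost with the length and GC trend removed (0.38) and without siTP63 replicate 2 (0.499). That of ITGB4 was lost without siCont replicate 1 (-0.49). That of CD151 was lost with edgeR (-0.47), with the length and GC trend removed (-0.14) and without siTP63 replicate 2 (-0.42).

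Among the genes not called in KYSE180 siTP63, ITGA6 was at 1444 and 1468 against 999 and 1138 (-0.45, adjusted p = 0.0080). It was called with the trend removed (-0.72) and, in fits without 1 library that gave -0.54 to -0.35, without siTP63 replicate 2. PLEC was at 2811 and 1993 against 3256 and 3338 (0.48, adjusted p = 0.011) and was called with edgeR (0.51). With 1 library left out it was 0.23 to 0.73, called without siCont replicate 1 and smallest without siCont replicate 2. DST was at 2180.1 and 2138 against 1982 and 2313 (-0.012, adjusted p = 0.95). LAMB3 was at 12431 and 9661 against 11207 and 10241 (-0.033, adjusted p = 0.88). The groups of DST and LAMB3 overlapped and the sign of each turned with rescaling. The interferon-response list summed to 4622 to 5345 with siCont and to 24210 to 24672 with siTP63, and the squamous markers to 188261 to 208985 and to 79373 to 84627. What part these shifts had was not tested.

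The effect of siTP63 therefore differed between the lines, and the difference itself passed the test for 7 of 8 genes. In KYSE180, 6 were higher and 1 lower than in TE6, and 24.4% and 26.6% of all 13896 genes were higher and lower. Upper-quartile rescaling moved the median of all genes in this contrast up by 0.13 and left all 7 past the test. LAMA3 was 1.63 higher in KYSE180 (SE 0.215, adjusted p = 1.5e-05) and DST 1.53 higher (SE 0.158, adjusted p = 1.9e-06). COL17A1 was 1.04 higher (SE 0.193, adjusted p = 3.1e-04), ITGA6 0.83 (SE 0.188, adjusted p = 0.0016) and ITGB4 0.66 (SE 0.158, adjusted p = 0.0023). PLEC was 0.54 higher (SE 0.194, adjusted p = 0.028) and CD151 0.95 lower (SE 0.152, adjusted p = 8.9e-05). With the length and GC trend removed, DST was at 0.87 and still passed, while ITGA6 (0.30, adjusted p = 0.14) and CD151 (-0.18, adjusted p = 0.27) did not pass. PLEC did not pass with no filter on low values (adjusted p = 0.072), nor in 5 of the 10 fits with 1 library left out of either line, in which its difference was 0.30 to 0.56. These 5 were the fits without KYSE180 siCont replicate 2 (adjusted p = 0.14), KYSE180 siTP63 replicate 1 (0.056), KYSE180 siTP63 replicate 2 (0.080), TE6 siCont replicate 1 (0.11) and TE6 siTP63 replicate 1 (0.12). LAMB3 differed by 0.22, with a 95% interval of -0.20 to 0.64. TP63 itself fell by 2.74 less in KYSE180 (SE 0.186, adjusted p = 2.8e-07), so line, experiment and depth of depletion cannot be told apart.

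**Figure D3:**
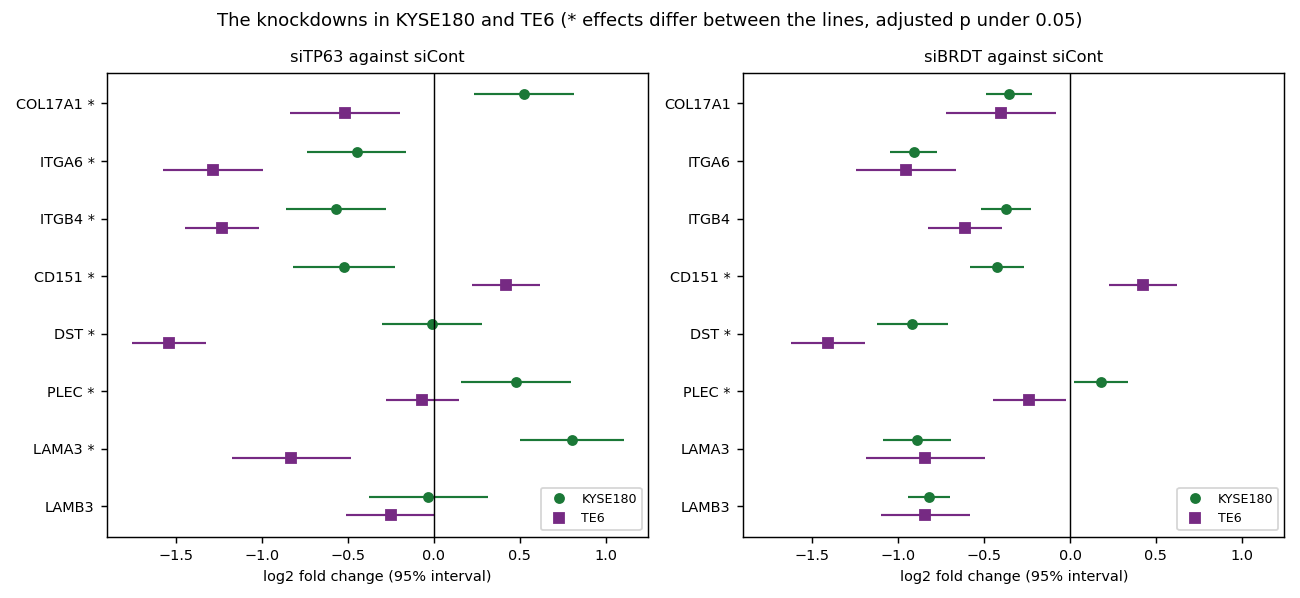
Log2 fold change (x axis) with its 95% interval for siTP63 (left) and siBRDT (right) in KYSE180 (green circles) and TE6 (purple squares), 1 line per gene (y axis). A star after the name marks genes whose effect differed between the lines at an adjusted p under 0.05. With siTP63, LAMA3 and COL17A1 lie right of 0 in KYSE180 and left of 0 in TE6, and with siBRDT the points of ITGA6, LAMA3 and LAMB3 nearly coincide.

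In KYSE150, where BRDT was at 60.9 and 8.25 in the siCont libraries, p63 depletion gave no calls by limma without a replicate block among the 8 genes, nor among all 12335 genes (0% lower and 0% higher). The lowest adjusted p of any gene was 0.080. Other fits did call genes among all, with 18 lower and 27 higher when low genes were kept, 479 and 316 with the length and GC trend removed and 259 and 202 with DESeq2. So did both fits with libraries paired as blocks. The crossed pairing, chosen after seeing the data, called 4 members lower and 1 higher, beside 1774 lower and 1626 higher of all 12335 genes. At an unadjusted p under 0.05, 4 of the 8 were lower and 1 higher, where 9.12% of all genes were lower and 8.67% higher. The median log2 fold change was -0.53 for the 8 genes and -0.0077 for all. ITGB4 was at 2818 and 2265 with siCont and 1013 and 1099 with siTP63 (-1.26, unadjusted p = 0.0011 and adjusted p = 0.11 by limma). COL17A1 was at 1093 and 1197 against 585 and 482 (-1.11, limma adjusted p = 0.11). DESeq2 on the recovered reads called both lower, and edgeR called 0 of the 8. ITGA6 was at 1028 and 1445 against 757 and 514 (-0.97, limma adjusted p = 0.18), and DST at 1662 and 1790.4 against 1121 and 856 (-0.82, limma adjusted p = 0.16). Values of these 4 genes did not overlap between the groups of 2 libraries each. The share of all genes without such overlap was not counted, so this is a description only.

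The other genes of KYSE150 siTP63 moved less or the other way. LAMB3 was at 2928 and 2378 with siCont and at 3749 and 4524 with siTP63 (0.64, limma adjusted p = 0.24), with no overlap. LAMA3 was at 489 and 569 against 597 and 397 (-0.11), PLEC at 7101 and 6635 against 5254 and 6448 (-0.24), and CD151 at 7719 and 5567 against 4478 and 7283 (-0.20). The last values show how far replicates of this experiment stood apart, and groups of LAMA3 and CD151 overlapped. Leaving out 1 library gave 0 to 2 members called lower. Without siTP63 replicate 1 they were COL17A1 (-1.25) and ITGA6 (-1.24), and without siCont replicate 2 (-1.42) or siTP63 replicate 2 (-1.32) it was ITGB4. With the length and GC trend removed, COL17A1 (-1.16), ITGA6 (-0.95), ITGB4 (-1.29) and DST (-0.79) were called lower. The squamous markers summed to 39871 to 51294 with siCont and to 21768 to 26109 with siTP63. The glandular sum was lower as well, at 44005 to 76546 against 81841 to 135225, and the interferon-response sum higher, at 2842 to 4935 against 2477 to 2563. The part of these lists in the values was not tested.

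BRDT overexpression in KYSE150 raised 3 of the 8 genes and lowered 0, where 10.5% of all 12765 genes rose and 16% fell. Of all calls 60.3% were lower, against 74.0% with upper-quartile rescaling, 49.2% with the length and GC trend removed and 49.0% with no fold limit. The median log2 fold change was 0.35 for the 8 genes and 0.017 for all. PLEC went from 10548, 12024 and 7536 to 24691, 25329.8 and 27281 (1.39 ± 0.143, adjusted p = 3.8e-05), to 261% of control. LAMA3 went from 1513, 1603 and 1164 to 2469, 2813 and 2548 (0.88 ± 0.113, adjusted p = 1.4e-04). ITGA6 went from 3187, 3433 and 2839 to 5286, 5866 and 5561 (0.82 ± 0.0826, adjusted p = 3.2e-05). The groups of these 3 genes lay far apart, and all 3 were called in all 14 alternatives, with log2 fold changes of 1.19 to 1.55, 0.74 to 0.97 and 0.73 to 0.89.

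LAMB3 was higher in every BRDT-OE library, at 6154, 7143 and 6807 against 5370.2, 5209 and 4909, but under the fold limit (0.37, adjusted p = 0.0023). DST was at 5325, 5528 and 5357 against 4905, 5223.5 and 3166 (0.32, adjusted p = 0.11), without overlap. Control replicate 3 was the low library here, as it was for PLEC and LAMA3, and without it the DST difference was 0.094. COL17A1 was at 3444, 3806 and 3784 against 4532, 3858 and 3464 (-0.096, adjusted p = 0.43). ITGB4 was at 4739.7, 4941 and 5296 against 5942, 5246 and 4777 (-0.088, adjusted p = 0.42). CD151 was at 4598, 4589 and 4276 against 4020.4, 3469 and 4507 (0.17, adjusted p = 0.14). Groups of COL17A1, ITGB4 and CD151 overlapped. TP63 values were 1405, 1377 and 1458 beside 1675, 1560.1 and 1344 (-0.11, adjusted p = 0.33). The interferon-response list was lower in BRDT-OE, at 3054 to 3145 against 5782 to 7155, and its part was not tested.

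The genes that rose with BRDT-OE and those that fell with siBRDT shared ITGA6 and LAMA3, seen in different lines. LAMB3 and DST, which fell with siBRDT in KYSE180 and TE6, were not called with BRDT-OE. Nor was ITGB4, which fell with siBRDT in TE6. How many of all genes shared calls in this way was not counted. PLEC, the gene that rose most with BRDT-OE, was not called with siBRDT in KYSE180 or in TE6. In no comparison were ITGB4 and ITGA6, which form 1 receptor, called in opposite directions.

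Ratios within a library need no scaling between libraries, and they show how unequally partner subunits moved. ITGB4 to ITGA6 was 1.69 ± 0.169 in KYSE150 control and 0.897 ± 0.0550 in BRDT-OE (SD, n = 3), so that the order of both subunits turned. It went up with siBRDT in KYSE180, from 0.767 ± 0.0349 to 1.11 ± 0.0849 (SD, n = 3). LAMB3 to LAMA3 was 29.4 ± 4.21 with siCont and 16.4 ± 1.36 with siTP63 in KYSE180, and in TE6 9.19 ± 1.70 and 13.7 ± 1.70 (SD, n = 2). With siBRDT it stayed within its spread in both lines, at 8.86 ± 0.488 and 9.37 ± 1.33 in KYSE180 (SD, n = 3) and at 9.19 ± 1.70 and 9.16 ± 1.01 in TE6 (SD, n = 2). These ratios are of read counts not divided by length.

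**Figure D4:**
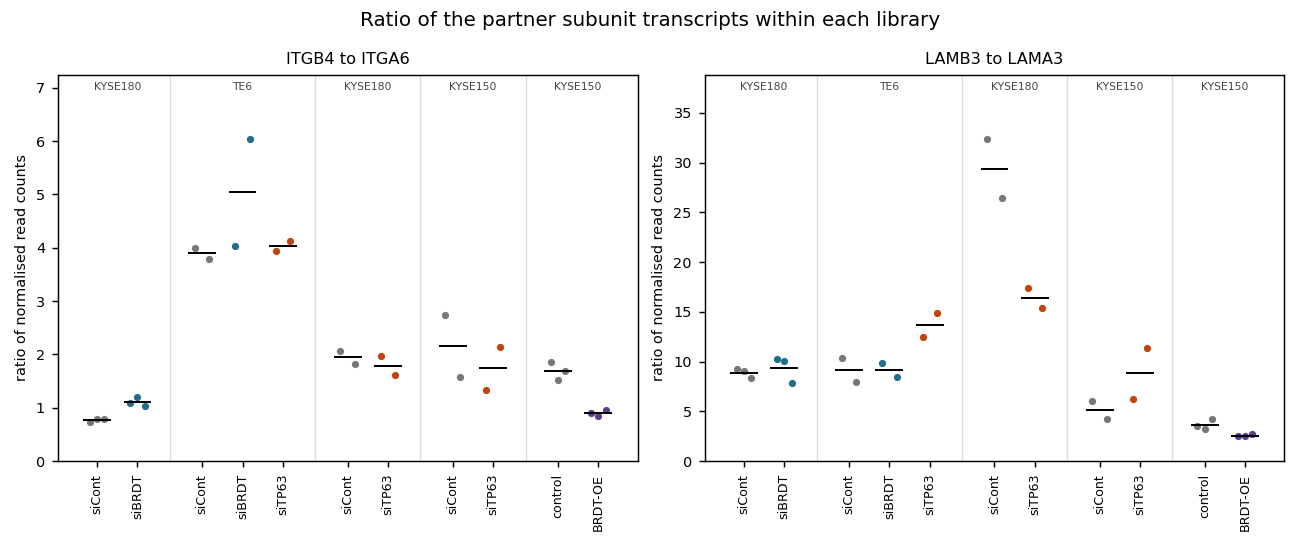
Ratio of normalised read counts (y axis, linear, from 0) of ITGB4 to ITGA6 (left) and of LAMB3 to LAMA3 (right) in each library (points) of 11 groups (x axis), with the group mean as a bar. ITGB4 to ITGA6 lies between 1.53 and 1.86 in KYSE150 control and between 0.842 and 0.952 in BRDT-OE, and LAMB3 to LAMA3 lies between 26.4 and 32.4 in KYSE180 siCont of the TP63 experiment and between 15.4 and 17.4 in KYSE180 siTP63.

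To see how the genes moved among themselves, log2 values of all 26 libraries were taken relative to the mean of the control libraries of the same table. The nearest pairs were DST and ITGA6 (Pearson r = 0.90), DST and LAMA3 (0.84) and ITGA6 and LAMA3 (0.78). The partners ITGA6 and ITGB4 were at 0.74 and LAMA3 and LAMB3 at 0.69. CD151 was apart, between -0.27 with DST and 0.060 with LAMB3. The points share tables, treatments and control libraries, so these values are descriptions only. Among 11337 genes past the filter in every table, the 3 most like COL17A1 were CMTR1 (0.89), OLFM2 (0.88) and INAFM2 (0.87). Those most like ITGB4 were DTL (0.94), PVRL1 (0.93) and RCC2 (0.93), and those most like LAMB3 were CTBP1-AS2 (0.95), JADE2 (0.92) and CHPF2 (0.92). None of the 8 genes was among the 3 most like COL17A1, ITGB4 or LAMB3.

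Finally, 24 other genes of basal keratin, matrix adhesion and basement membrane were followed with the same rule. This list was chosen with earlier results of these data known, so its counts and medians are descriptions only. With siBRDT 14 of 24 fell and 0 rose in KYSE180, and 16 of 23 fell and 0 rose in TE6, with list medians of -0.73 and -0.82. Of all genes 15.8% fell and 14.5% rose in KYSE180, and 18.1% and 15.6% in TE6, with medians of -0.0052 and -0.039. COL4A1, a chain of the collagen IV network, fell in both lines, with log2 fold changes of -1.27 (KYSE180, adjusted p = 1.8e-09) and -1.80 (TE6, adjusted p = 2.0e-06). NID1, which bridges laminin and collagen IV, was at -1.39 in KYSE180 (adjusted p = 3.1e-09), and ITGB1, the common β1 integrin subunit, at -2.10 in TE6 (adjusted p = 1.8e-05). With siTP63, 12 of 23 fell and 2 rose in TE6 (median -0.57), while 5 of 23 fell and 10 rose in KYSE180 (median 0.33). The shares of all genes were 20.6% and 18.3% in TE6 and 25.7% and 23.6% in KYSE180, with medians of -0.011 and 0.00064. KRT14, the basal keratin that hemidesmosomes anchor, was at -5.26 in TE6 (adjusted p = 2.5e-11) and at -2.76 in KYSE180 (adjusted p = 2.6e-12). Its partner KRT5 was at -3.32 in TE6 (adjusted p = 7.6e-09), and COL7A1, the anchoring fibril collagen, at -1.83 in KYSE180 (adjusted p = 2.8e-10).

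The laminin β2 chain gene LAMB2 rose with siTP63 in both lines, with 1.57 in KYSE180 (adjusted p = 2.2e-09) and 1.46 in TE6 (adjusted p = 2.2e-06). DAG1, which encodes dystroglycan, rose by 1.5 in KYSE180 (adjusted p = 3.2e-09), and AGRN, which encodes agrin, by 0.68 in TE6 (adjusted p = 1.6e-04). The siTP63 effect was higher in KYSE180 than in TE6 for 18 of 23 genes of the list and lower for 0, where 24.4% and 26.6% of all genes were higher and lower. ITGB1 (2.58, adjusted p = 8.2e-06) and KRT14 (2.50, adjusted p = 3.7e-07) differed most. For siBRDT 10 of 23 were higher and 4 lower in KYSE180, beside 20.3% and 18% of all genes, and without TE6 siCont replicate 1 only 6 were higher. COL4A6 (0.98) and ITGB1 (0.94) were the furthest up, and COL7A1 (-1.09) and AGRN (-0.72) the furthest down. Between siTP63 and siBRDT in TE6, 6 of 23 were lower and 8 higher with siTP63 (14.3% and 14.1% of all genes), with KRT14 (-3.79), COL7A1 (-1.86), LAMB2 (1.83) and AGRN (1.12) furthest apart. The 8 became 4 without siBRDT replicate 1 and 5 without siTP63 replicate 2.

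BRDT-OE raised 5 of 22 genes of the wider list and lowered 2, with a list median of -0.075, where 10.5% of all genes rose and 16% fell with a median of 0.017. Those that rose numbered 3 with upper-quartile rescaling, without control replicate 3 or without BRDT-OE replicate 2, and 8 with no fold limit. Those that fell numbered 4 without control replicate 3 and 5 with no fold limit. Of all 12765 genes, 3326 rose and 3195 fell with no fold limit, and 889 rose and 2529 fell with upper-quartile rescaling. COL7A1 rose by 0.71 (adjusted p = 9.9e-05) and ITGA2, the α2 collagen receptor subunit, by 0.69 (adjusted p = 0.0033). LAMB2 (-1.06, adjusted p = 3.6e-05) and the tetraspanin CD9 (-0.67, adjusted p = 5.7e-04) were the 2 that fell. In KYSE150 siTP63, limma without a block called 0 of 22 (median 0.11). Of the list, 1 was called lower when low genes were kept, 3 with the length and GC trend removed, 3 with DESeq2 and 2 in each fit without 1 library. LAMB2 thus moved up under siTP63 in 2 lines and down under BRDT-OE. With siBRDT it was lower too, under the fold limit, at -0.39 in KYSE180 (limma adjusted p = 1.6e-04) and -0.37 in TE6 (limma adjusted p = 0.032).

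**Figure D5:**
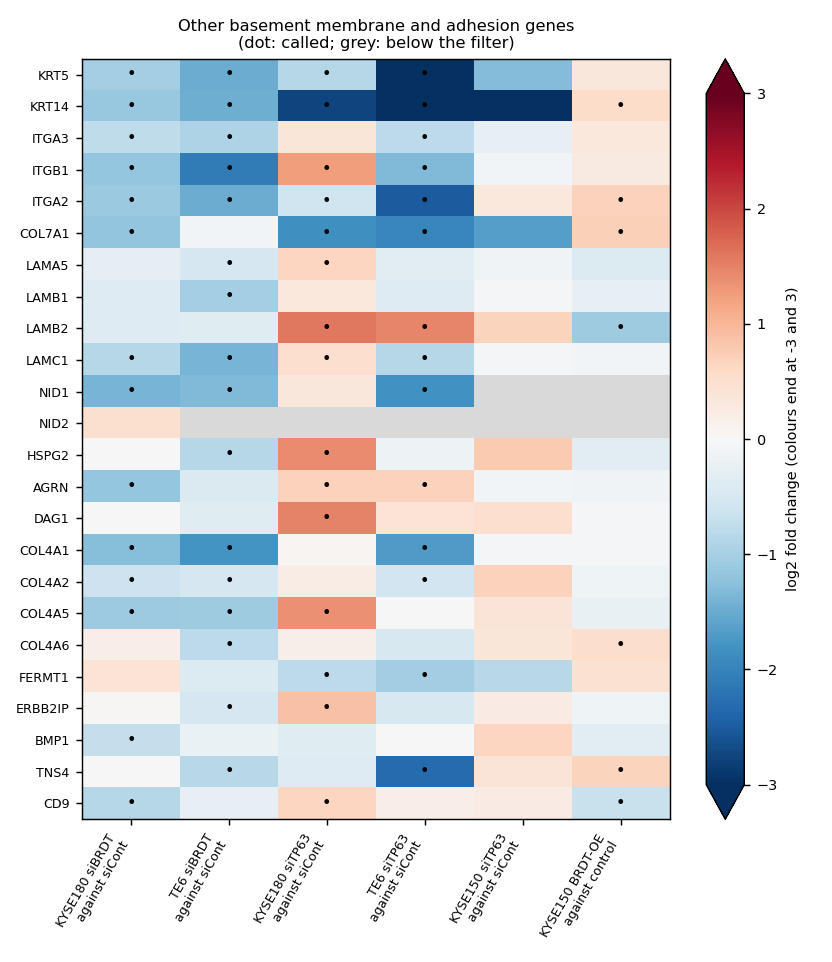
Log2 fold change (colour, blue lower and red higher, colours ending at -3 and 3) of the 24 genes of the wider list (rows) in 6 comparisons (columns). Dots mark called genes and grey marks genes below the filter. The siBRDT columns hold 14 and 16 called genes, all lower, and the column of siTP63 in KYSE180 holds 10 higher and 5 lower.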

How the data were processed

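RNA-seq libraries were made with the Illumina TruSeq RNA kit V2. Per the submitters' processing notes and the study's methods, reads were mapped to hg38 with STAR 2.6.0, counted with HTSeq 0.11.2 and analysed with DESeq2 1.24.0. The annotation and the strand setting are not given in the sources used here. What the authors deposited is a signal, namely reads counted per gene and scaled by the library's size factor, worked out for each of 5 tables on its own. Every value was a whole multiple (within 0.001 reads) of the worth of 1 read, and 100% came out whole, which gave library totals of 7582089 to 19372441 reads. No molecular identifiers were used, so limits from reads cover counting error only.

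Tests used limma 3.58.1 (R 4.3.3, lmFit and eBayes with trend) on log2(value + 1) for genes with a mean value of at least 10, without a replicate block. On this scale the changes of low genes are understated. Calls needed a Benjamini-Hochberg adjusted p under 0.05 and a change of 0.5 or more on the log2 scale, or the p alone for contrasts between lines. The 3 TE6 groups shared 1 fit. Contrasts between lines compared fold changes each taken within a table.

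The 8 members, the 24 genes of the wider list and the markers were chosen with earlier results of these data known. Members are named throughout. Also named are, per comparison, the 2 highest and 2 lowest called genes of the wider list whose mean value reached 100, and the 3 genes most like COL17A1, ITGB4 and LAMB3. Lengths, GC content and positions came from GENCODE release 44, matched for 87.4% of symbols. Per-length levels used the longest transcript.

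Alternatives were a pseudocount of 0.1, no filter, upper-quartile rescaling, a block for the replicate number, count tests of the recovered reads by edgeR 4.0.16 and by DESeq2 1.42.0, no fold limit, removal of a spline (4 degrees of freedom) of length and of GC content from every library, fits of only 2 TE6 groups and leaving out each library. A crossed pairing of KYSE150 siTP63 and lengths over all exons were added after seeing the data. The fits were tested on simulated data. Figures were drawn with matplotlib 3.10.9.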

Additional observations from a re-analysis of the deposited data

Results flagged for a closer look

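For 7 of the 8 genes the effect of siTP63 differed between KYSE180 and TE6 by the limma contrast of the log2 fold changes. Of all 13896 genes, 24.4% were higher and 26.6% lower in KYSE180 by this contrast. The differences, KYSE180 minus TE6, were 1.63 for LAMA3, 1.53 for DST, 1.04 for COL17A1, 0.83 for ITGA6, 0.66 for ITGB4, 0.54 for PLEC and -0.95 for CD151. For LAMA3 and COL17A1 the directions were opposite, both being called higher in KYSE180 and lower in TE6, although the TE6 call of COL17A1 was lost without any of 3 libraries. With the length and GC trend removed, the differences of ITGA6 (0.30) and CD151 (-0.18) did not pass. That of PLEC did not pass with no filter on low values. The siTP63 fold of TP63 itself also differed between the lines, and the sum of the squamous markers fell in both.

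The effect of siBRDT differed between the same lines for 3 genes, by 0.49 for DST, 0.42 for PLEC and -0.85 for CD151. Of all 13804 genes, 20.3% were higher and 18% lower in KYSE180, so 3 of 8 is near the share of all genes. The DST difference was 0.18 with the length and GC trend removed and did not pass. That of PLEC did not pass without KYSE180 siBRDT replicate 2 (0.36). CD151 was the gene whose siBRDT values lay below control in KYSE180 and above control in TE6. With the length and GC trend removed, its log2 fold change in TE6 was -0.061. The interferon-response list was higher in TE6 siBRDT and not in KYSE180 siBRDT, and its part in these differences was not tested.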

How the results depend on the processing

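Replicate numbers did not pair the libraries: correlations of deviations from the group means ran from -0.70 (KYSE150 siTP63) to 0.18 (KYSE180 siBRDT). The fit with the replicate number as a block left the direction and call of every member as it was, in 72 of 72 values, and called 0 members in KYSE150 siTP63, where it called 48 genes lower and 89 higher among all and 2 genes of the wider list lower. With the crossed pairing, added after seeing the data, 4 members were called lower and 1 higher there, beside 1774 and 1626 genes and 4 lower and 4 higher of the wider list. A pseudocount of 0.1 changed none of 72 values.

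Numbers of members called that moved by more than 1.5 times, or from or to 0, were as follows. With no fold limit, 7 were lower and 1 higher in KYSE180 siBRDT, and 1 was higher in TE6 siBRDT and in TE6 siTP63. Of all 13589 genes, 4044 were then lower and 3893 higher in KYSE180 siBRDT. Of all 13333 genes, 2925 were higher in TE6 siBRDT and 3280 in TE6 siTP63. In KYSE180 siTP63, 0 were lower with upper-quartile rescaling and 1 with edgeR, and 1 was higher with the length and GC trend removed. In KYSE150 siTP63, 2 were lower with DESeq2 and 4 with the trend removed, beside 259 of all 12335 and 479 of all 11376 genes. With the trend removed, 0 genes had a siTP63 effect lower in KYSE180 than in TE6, and 1 had a siBRDT effect higher. Fits without 1 library gave 1 to 2 lower and 1 to 3 higher in KYSE180 siTP63, 0 to 2 lower in KYSE150 siTP63, 1 to 3 with a higher siBRDT effect in KYSE180, and 1 to 2 lower and 0 to 1 higher for siTP63 against siBRDT in TE6. Smaller moves, each by 1 gene, were 5 lower in KYSE180 siBRDT with the trend removed, 6 lower in TE6 siBRDT with no fold limit or without siBRDT replicate 2, 3 lower in KYSE180 siTP63 with no fold limit and 3 higher with upper-quartile rescaling, edgeR or no fold limit, 4 higher in BRDT-OE with no fold limit, 4 lower in TE6 siTP63 with upper-quartile rescaling, the trend removed or 1 of 3 libraries left out, and 5 with a siTP63 effect higher in KYSE180 with no filter, the trend removed or 1 of 5 libraries left out. The cause of these moves was not tested. Fits without 1 library have fewer samples, and the trend fit has fewer genes.

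Signs turned for these values. In KYSE180 siTP63, DST was 0.18 with upper-quartile rescaling, 0.043 with edgeR, 0.0044 with DESeq2 and -0.12 to 0.10 without 1 library, and LAMB3 was 0.16 with upper-quartile rescaling, 0.0087 with edgeR and -0.21 to 0.15 without 1 library. With the trend removed, CD151 was -0.061 in TE6 siBRDT, ITGB4 was 0.077 in BRDT-OE, and the siBRDT effect differed by -0.0048 for COL17A1 and -0.20 for ITGA6. For siTP63 against siBRDT in TE6, LAMA3 was -0.0054 with edgeR, -0.0070 with DESeq2 and -0.066 with the trend removed, and CD151 was 0.0046 with upper-quartile rescaling and 0.12 with the trend removed. Without 1 library the ranges in that contrast were -0.34 to 0.12 (COL17A1), -0.22 to 0.25 (LAMA3) and -0.035 to 0.031 (CD151). They were -0.15 to 0.018 for PLEC in TE6 siTP63, -0.41 to 0.18 for LAMA3 and -0.55 to 0.15 for CD151 in KYSE150 siTP63, and -0.19 to 0.0073 for COL17A1 in BRDT-OE. For the siBRDT effect between lines they were -0.18 to 0.28 (COL17A1), -0.15 to 0.24 (ITGA6), -0.28 to 0.19 (LAMA3) and -0.10 to 0.15 (LAMB3).

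Groups of 2 or 3 libraries limit every comparison. Depth did not limit the members, each of which was far above the value of 3 reads in every library.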
